A study of Mus musculus with 123 samples.

Results

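The main histone gene cluster of the mouse lies on chromosome 13 and holds most of the genes that make the histones of replicating cells. Its 2 dense blocks were examined here as the intervals chr13:21790000-22150000 (block 1, 360 kb) and chr13:23600000-23870000 (block 2, 270 kb) of the mm9 build. Every deposited peak that overlapped either block by at least 1 bp was a member, a choice made by position with no measured value. There were 93 such peaks among 60226 in 3 lists. ES1 gave 38 of its 26292 peaks, ES2 35 of 21543 and ES3 20 of 12391. The 1450 kb between the blocks, with 42 peaks, served as the comparison. A pair of these, 1 in ES2 and 1 in ES3, crossed the left edge of block 2 and were counted on both sides of it.

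The study profiled histone H3 lysine 4 methylation in single cells by chromatin immunoprecipitation sequencing, with cells lysed and digested with micrococcal nuclease in drops and given DNA barcodes before pooling. Its 123 libraries, 86 for H3K4me2 and 37 for H3K4me3, cover embryonic stem cells of the V6.5 strain grown with serum and LIF, fibroblasts bought from Globalstem, and EML blood progenitor cells. The lists are read here as 3 sets of the stem cells, for which the labels name no treatment or engineered allele. For these lists the sources used here give no mark, library, number of cells or rule of assignment. Were cells assigned by the same profiles that gave the peaks, part of any difference between lists would be set by that step. Each list stands alone, with no replicate, so no test was made and the 95% intervals cover counting error only.

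Replication-dependent histone genes are switched on together in S phase, when new DNA has to be wrapped into nucleosomes. They have no introns, and their messages end in a stem-loop in place of a poly(A) tail. H2A, H2B, H3 and H4 form the core of the nucleosome, and H1 binds the DNA between nucleosomes. Di- and trimethylation of H3 lysine 4 mark promoters, with trimethylation closest to active start sites and CpG-rich promoters in stem cells. Histone genes stand close together, often head to head, so a single methylated stretch can belong to more than 1 start site.

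RefSeq (GRCm38.p6) lists 56 genes with a Hist1h name or synonym, 54 of them protein-coding. By class these are 6 H1, 15 H2A, 15 H2B, 9 H3 and 11 H4 genes. In gene order they form 2 groups, with a long run of Vmn1r genes, which code for pheromone receptors of the vomeronasal organ, between them. The group before that run holds 24 histone genes, of which 8 are H2A, 8 H2B, 5 H4, 2 H3 and 1 H1. A stretch within this group holds 31 tRNA genes with Zfp184, Pom121l2 and Prss16, and no histone gene. The group after the Vmn1r run holds 31 histone genes, of which 7 are H3, 7 H2B, 6 H2A, 6 H4 and 5 H1. Hfe, Trim38, Slc17a2, Slc17a3, Slc17a1 and Slc17a4 also lie within the later group. The remaining Hist1h gene is a pseudogene elsewhere on the chromosome. The build of that table differs from mm9, so it was used for names and order only. No peak was placed on a gene, and whether each block holds the genes its name states was not checked against mm9.

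**Figure D1:**
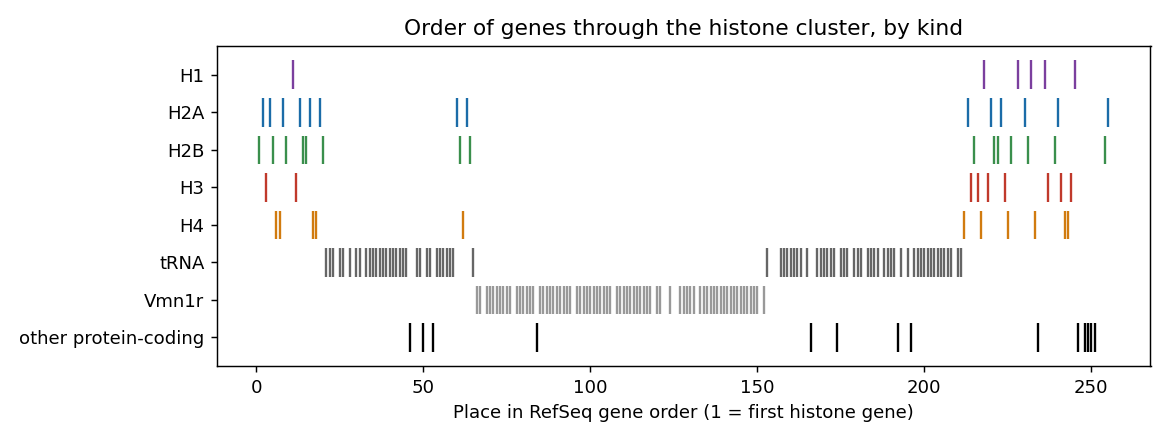
Genes of the RefSeq table through the cluster, 1 mark per entry, by kind (vertical axis) and place in gene order from the first histone gene (horizontal axis, a count of entries and not a distance). The first histone group is split by a stretch that holds 31 tRNA genes. Then come 75 Vmn1r entries and then 45 tRNA genes. The second group opens with 29 histone genes and no tRNA gene among them.

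Promoters of H1, H2B, H3 and H4 genes are shown because the classes differ in the short boxes they hold. The genes were picked by order of symbol or by place, and not as typical of their class. The promoter table held 52 windows for 51 of the 56 genes, each cut here to the 250 bases before the start. The CCAAT box, bound by NF-Y at many promoters, occurred on either strand in all 6 H1, 13 H2A, 15 H2B and 7 H3 windows. It occurred in 3 of 11 H4 windows (27.3%), against 33.8% of all 32851 promoters. The TATA box was searched as TATAAA on either strand and occurred in 26 of 52 histone windows (50.0%), against 12.4% of all promoters. On the gene's strand its first base ranged from -250 (H4c6) to -10 (H2bc3), and some windows, such as H2ac8, held it on the other strand only. The count is therefore of letters anywhere in the window, and not of boxes at a set distance from the start. The octamer ATTTGCAT, bound by Oct-1 at H2B promoters, occurred in 6 of 15 H2B and 5 of 13 H2A windows and in 0 of the H1, H3 and H4 windows, against 1.60% of all promoters. The H1 box AAACACA occurred in 5 of 6 H1 windows, in 2 H2A and 2 H2B windows, and in 6.25% of all promoters. H2A and H2B counts are not separate, because 10 head-to-head pairs of an H2A and an H2B gene have windows that share bases. Before the cut to 250 bases, the windows of a pair shared 220 to 279 bases. The overlap of the cut windows was not counted. H2bc1, a testis histone gene, shares 220 bases with its H2A partner H2ac1, whose window is therefore not shown. The windows of H2bc23 and of the gene listed as H4bc24 are identical, so reads from these copies cannot be told apart by sequence there. Capitals mark the 4 boxes on either strand (ATTGG is the CCAAT box read from the other strand), and each run is 5′ to 3′ on the gene's strand, from RefSeq GRCm38.p6. The strand is plus for H1f1, H2bc11 and H3c2 and minus for H2bc1 and H4c1.
H1f1: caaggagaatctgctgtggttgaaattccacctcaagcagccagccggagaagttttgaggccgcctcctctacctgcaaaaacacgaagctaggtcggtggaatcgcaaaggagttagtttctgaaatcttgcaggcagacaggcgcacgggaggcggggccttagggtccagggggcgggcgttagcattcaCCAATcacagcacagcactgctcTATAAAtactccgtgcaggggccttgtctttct
H2bc1: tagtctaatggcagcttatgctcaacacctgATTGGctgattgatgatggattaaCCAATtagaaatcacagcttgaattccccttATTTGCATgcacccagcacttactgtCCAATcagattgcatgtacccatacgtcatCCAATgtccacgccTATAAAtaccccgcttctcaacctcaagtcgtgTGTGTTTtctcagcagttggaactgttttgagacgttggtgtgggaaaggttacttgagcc
H2bc11: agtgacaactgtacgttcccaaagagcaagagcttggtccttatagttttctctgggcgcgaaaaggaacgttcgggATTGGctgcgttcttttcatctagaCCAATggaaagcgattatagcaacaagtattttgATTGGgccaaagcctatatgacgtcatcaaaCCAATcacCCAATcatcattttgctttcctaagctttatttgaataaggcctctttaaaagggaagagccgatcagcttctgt
H3c2: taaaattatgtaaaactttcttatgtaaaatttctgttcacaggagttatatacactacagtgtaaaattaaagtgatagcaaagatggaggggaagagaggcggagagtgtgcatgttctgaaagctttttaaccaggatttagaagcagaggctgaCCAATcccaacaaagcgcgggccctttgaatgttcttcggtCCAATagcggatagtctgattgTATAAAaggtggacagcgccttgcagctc
H4c1: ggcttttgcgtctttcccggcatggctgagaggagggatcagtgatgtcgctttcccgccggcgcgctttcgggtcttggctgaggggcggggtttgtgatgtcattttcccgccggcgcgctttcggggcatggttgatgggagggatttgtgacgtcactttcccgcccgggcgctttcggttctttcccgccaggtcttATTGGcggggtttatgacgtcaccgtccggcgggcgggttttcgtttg
The H2bc1 window holds 4 CCAAT boxes, 1 TATAAA, 1 octamer and 1 H1 box. H2bc11, the last histone gene before the Vmn1r run, holds 5 CCAAT boxes and none of the others. H4c1 holds 1 CCAAT box and none of the others, and is among the 3 H4 windows with that box. H1f1 holds 1 CCAAT box and 1 TATAAA, and is the only H1 window without the H1 box. H2bc1 is among the 2 H2B windows that hold the H1 box. These matches describe letters in the windows and say nothing of which factor was bound.

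Peaks covered the blocks far more densely than the interval, in every list. In ES1 16.2% of the bases of both blocks lay under a peak, against 3.15% of the interval, 1.97% of chromosome 13 and 2.43% of the genome. In ES2 the shares were 13.7% of the blocks and 2.46% of the interval, with 1.42% of the chromosome and 1.77% of the genome. In ES3 they were 5.11% and 1.32%, with 0.655% of the chromosome and 0.865% of the genome. The covered share of the blocks was thus 5.15 times that of the interval in ES1, 5.57 times in ES2 and 3.87 times in ES3. Against the genome it was 6.69, 7.75 and 5.91 times. Both blocks took part. Block 1 was covered to 17.8% in ES1, 14.2% in ES2 and 4.91% in ES3, and block 2 to 14.1%, 13.1% and 5.38%.

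Tiles of 10 kb gave the same order. In ES1 35 of the 63 tiles of the blocks held a peak (55.6%, 95% interval 42.5 to 68.1%), against 14 of 145 in the interval (9.66%, 5.38 to 15.7%) and 10.5% of all tiles of the genome. In ES2 30 block tiles held a peak (47.6%, 34.9 to 60.6%), against 12 in the interval (8.28%, 4.35 to 14.0%) and 8.56% genome-wide. In ES3 the counts were 20 in the blocks (31.7%, 20.6 to 44.7%) and 8 in the interval (5.52%, 2.41 to 10.6%), with 5.01% genome-wide. The block and interval intervals did not overlap in any list, and the genome's share lay inside the interval's range each time. A peak that crosses a tile edge fills both tiles, so tiles are not fully separate counts.

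**Figure D2:**
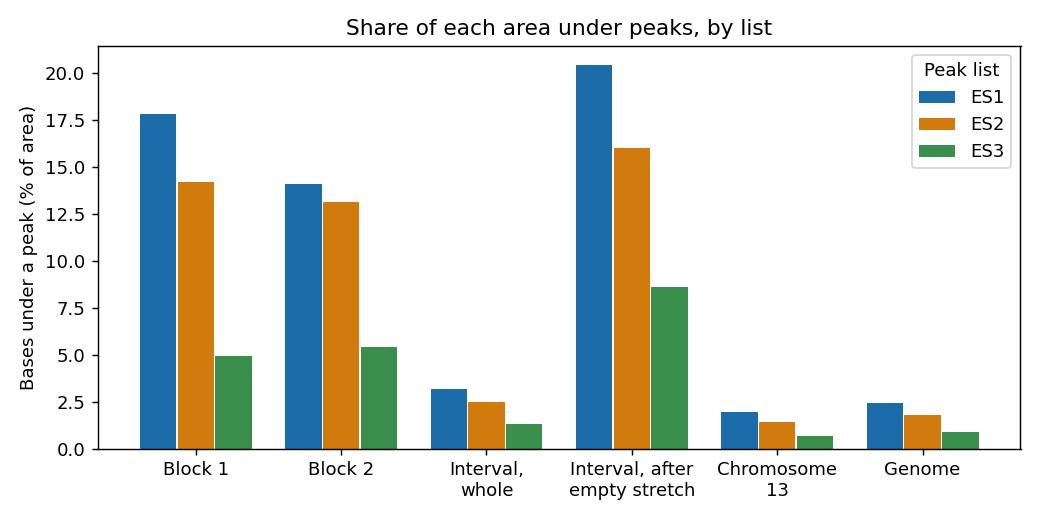
Share of bases under a peak (vertical axis, % of area) in the blocks, the interval between them, its part after the long peak-free stretch, chromosome 13 and the genome, with 1 bar per list and no replicate. Both blocks stand above the whole interval, and the part of the interval next to block 2 (20.4% in ES1, 16.0% in ES2, 8.58% in ES3) stands as high as the blocks.

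Most of the interval was a single stretch with no peak. No list had a peak in the 1233 kb from chr13:22143299-23376718, the 14th longest of 1308 stretches between neighbouring regions of the chromosome. All 16 ES1, 17 ES2 and 9 ES3 peaks of the interval lay in the 223.28 kb that follow it and end at block 2. There the cover was 20.4% for ES1, 16.0% for ES2 and 8.58% for ES3, above that of either block in the same list. Peaks stood there at 7.17, 7.61 and 4.03 per 100 kb, against 6.94, 5.83 and 3.61 in block 1 and 4.81, 5.19 and 2.59 in block 2. This division of the interval was made after the data were seen. The contrast of the blocks with the interval is therefore a contrast with the empty stretch, and the dense area of peaks runs past the left edge of block 2. In gene order, RefSeq has 75 Vmn1r entries and 0 tRNA genes in the run after the first histone group. Next come 45 tRNA genes with Zfp322a, Abt1, Btn1a1 and Btn2a2, and then the second histone group. Which of these genes lie under the empty stretch or the dense part was not tested.

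**Figure D3:**
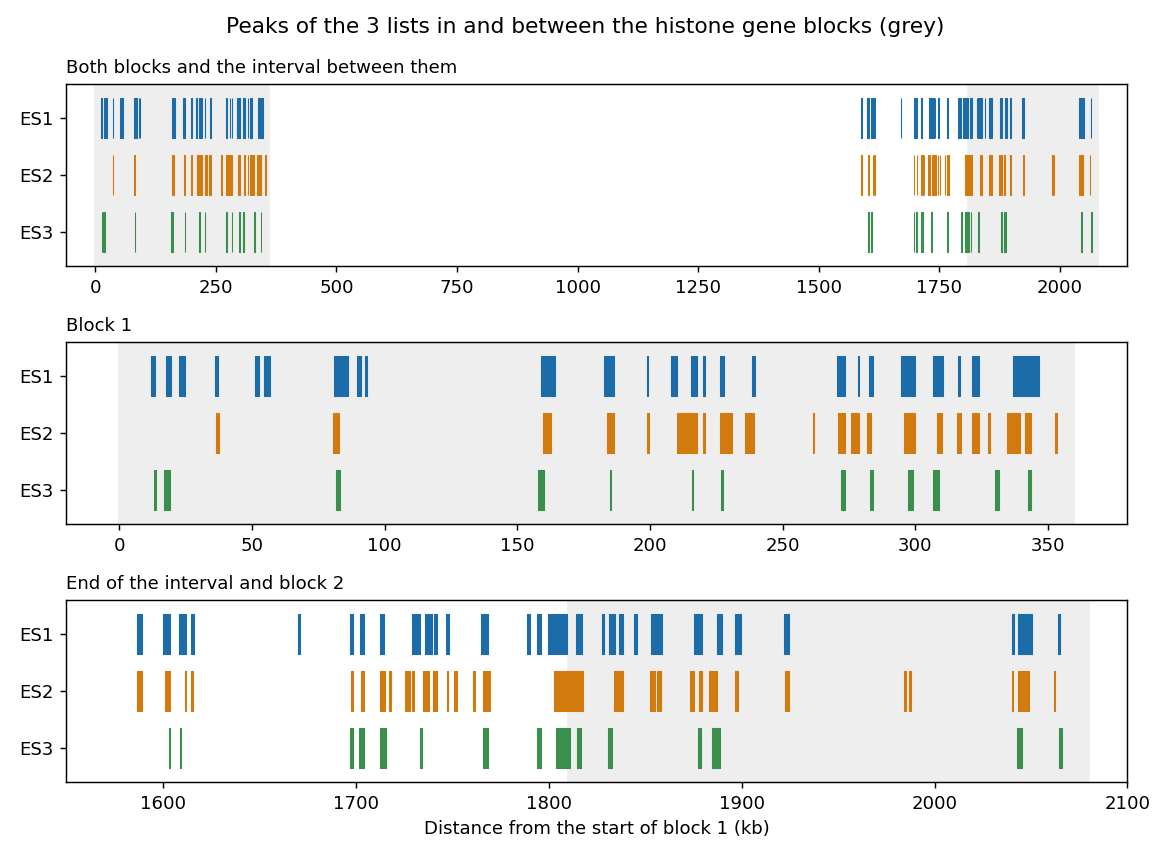
Peaks of the 3 lists (rows, 1 colour each) by distance from the start of block 1 in kb, for the whole locus, for block 1 enlarged and for the end of the interval with block 2, with the blocks in grey. Peaks crowd in both blocks and in the last 223.28 kb before block 2, and the 1233 kb before that hold none.

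Outside the blocks the outer edges were sharper than the inner edge of block 2. In the 360 kb before block 1 there were 3 ES1, 5 ES2 and 1 ES3 peaks, which covered 0.911%, 1.33% and 0.388% of it. In the 270 kb after block 2 there were 1, 2 and 0 peaks, with 0.798%, 0.687% and 0% covered. No list had a peak from chr13:21598667-21801729 (203 kb), before the first peak of block 1, or from chr13:23871116-24025217 (154 kb), after the last peak near block 2. At the left edge of block 2, an ES1 peak at chr13:23589739-23599411 with 19 reads lay 589 bp outside. At the right edge, an ES2 peak at chr13:23870481-23871115 with 10 reads lay 480 bp outside. The peaks just inside the left edge of block 1 stood 11.7 kb from it in ES1, 36.2 kb in ES2 and 13.1 kb in ES3.

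Within the blocks, peaks stood in groups. Neighbouring regions, formed by joining peaks of any list that touch or overlap, were a median of 8.68 kb apart from centre to centre in block 1 and 11.3 kb in block 2, against 6.54 kb in the interval, where all peaks stand at its end, and 22.5 kb on chromosome 13. Block 1 had a peak-free stretch of 64.3 kb at chr13:21883377-21947717. Block 2 had peak-free stretches of 59.7 and 52.2 kb, parted only by 2 small ES2 peaks at chr13:23774256-23775187 and chr13:23776978-23777806. When chromosome 13 was laid out in windows of the length of block 1, placed end to end from it, block 1 ranked 1st of 333 by number of peaks in ES1 and ES2 and 2nd in ES3. The median window held 2 ES1, 1 ES2 and 0 ES3 peaks. Block 2 ranked 11th, 5th and 8th of 445 windows of its length. By covered bases the ranks were lower, with block 1 at 4th, 3rd and 8th and block 2 at 12th, 8th and 11th. The blocks' edges were drawn around the cluster and those of other windows were not, so these ranks are descriptive.

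The lists did not share the 2 ends of block 1 evenly. In the first 2 groups of block 1, chr13:21801730-21846888 and chr13:21870430-21883376, ES1 had 9 peaks, 6 in the first and 3 in the second. ES2 had 1 peak in each, and ES3 had 2 and 1. The reads there were 91 and 45 in ES1, 16 and 13 in ES2, and 29 and 15 in ES3. Those reads are known over 9409 and 3683 bp in ES1, 1274 and 501 bp in ES2, and 2821 and 1542 bp in ES3. Per kb they were 9.67 and 12.2 in ES1, 12.6 and 25.9 in ES2, and 10.3 and 9.73 in ES3. ES1 thus led there in peaks and reads and not in reads per kb. In the last group of the block, chr13:22051405-22143298, ES2 led with 12 peaks and 232 reads, ES1 had 8 peaks and 167 reads, and ES3 6 peaks and 87 reads. ES1 covered slightly more bases there, 27306 bp against 25467 bp in ES2. The ES2 reads came from 21255 bp of inner interval and those of ES1 from 13163 bp, which is 10.9 reads per kb in ES2 and 12.7 in ES1. In block 2 the main group, chr13:23589739-23689507, held 9 ES1, 8 ES2 and 5 ES3 peaks that overlap the block, with 176, 173 and 92 reads. An ES1 peak of 19 reads at the left end of that span lay outside the block and is not in these counts. The groups were divided at peak-free stretches of 20 kb or more, a division made after the data were seen.

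Between lists, ES3 had the fewest peaks in the blocks, as it had in the genome. ES1 had 1.90 times as many peaks there as ES3 and 3.17 times the covered bases, against 2.12 and 2.80 times genome-wide. ES2 had 1.75 and 2.68 times the ES3 values, against 1.74 and 2.05 genome-wide. ES1 and ES2 were closer to each other in the blocks, with a ratio of 1.09 in peaks and 1.18 in covered bases, than genome-wide, where it was 1.22 and 1.37. These ratios rest on few peaks and their difference from the genome's was not tested. The lists hold similar total reads and differ in length. With each list shortened to the length of ES3 by score, ES1 kept 10 peaks in block 1 and 6 in block 2, ES2 13 and 9, and ES3 13 and 7, so the order of ES1 over ES3 in peak number turned. The cover of both blocks was then 5.55% for ES1 and 5.11% for ES3, in the same order as before. Shortened by reads, ES1 kept 13 and 11 peaks and a cover of 12.6%, at or above ES3 in each block.

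The reads of a peak were recovered from its score and the length of its inner interval, under the assumption that a unit of the score is 1 read. Peaks in the blocks summed to 757 ES1, 714 ES2 and 305 ES3 reads, from lists of 2441443, 2717742 and 2439853 reads. Per kb of inner interval the blocks had 11.2, 10.8 and 9.97 reads for ES1, ES2 and ES3. The interval had 12.0, 13.9 and 13.9, and all peaks of the genome 12.6, 12.5 and 12.0. Peaks in the blocks were thus many, and not denser in reads than peaks elsewhere. By median they were wider than the genome's peaks in each list. The median widths were 2279.5 bp (ES1), 2202 bp (ES2) and 1716 bp (ES3), against 1684, 1660 and 1517 bp genome-wide. Peaks of the interval had medians of 2093, 1662 and 1996 bp, wider than those of the blocks in ES3 and narrower in ES1 and ES2. The median number of reads of a peak in the blocks was 18, 18 and 15, against 16, 16 and 14 genome-wide. Peaks of 5 kb or more made up 6 of 38 in ES1 (15.8%, 95% interval 6.02 to 31.3%), 3 of 35 in ES2 (8.57%) and 1 of 20 in ES3 (5.00%). The genome-wide shares were 9.95%, 6.96% and 3.59%, and each lay inside the counting range of the blocks.

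Merging left 44 regions in the blocks, 29 in block 1 and 15 in block 2. All 3 lists called 15 of them (34.1%, 95% interval 20.5 to 49.9%), against 26.2% of the 31580 regions of the genome. ES1 alone called 8 (18.2%, 8.19 to 32.7%), against 27.3%. ES1 and ES2 together called 11 (25.0%, against 23.8% in the genome), and ES1 and ES3 called 3 (6.82%, against 4.95%). ES2 alone called 6 (13.6%, against 12.8%), ES3 alone 1 (2.27%, against 2.97%), and ES2 with ES3 none (0%, against 2.05%). The genome's share lay inside the 95% range of the blocks for every combination. The mix of lists there was therefore not distinguishable from that of the genome at this number of regions. In the interval 8 of 20 regions were in all 3 lists (40.0%, 19.1 to 63.9%). Regions in all 3 lists had a median span of 6067 bp in the blocks, against 3474 bp genome-wide. Those of ES1 alone had 1568 bp and those of ES2 alone 637 bp. Of the 20 ES3 peaks in the blocks, 19 met an ES1 peak and 15 (75.0%) met a peak of ES2, against 86.6% and 77.1% genome-wide.

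The regions with the most reads were long and held unequal shares of reads between lists. In block 1, chr13:22124422-22136640 (12219 bp, the widest of the block) had 66 ES2 reads (51 to 84) against 23 ES1 reads (14.6 to 34.5) and 10 ES3 reads (4.80 to 18.4). Those reads are known over 2138 bp in ES1 and 7237 bp in ES2, so the larger ES2 count covers a longer stretch. The region chr13:22000346-22007842 held 25 ES1, 61 ES2 (46.7 to 78.4) and 11 ES3 reads, over 1277, 7462 and 591 bp. Both were ES2-led by count and not by reads per kb. In chr13:21947718-21954246 the order was ES1, ES2, ES3, with 44 (32.0 to 59.1), 28 (18.6 to 40.5) and 19 reads (11.4 to 29.7). Per kb it had 8.06, 9.71 and 7.87 reads, so the densities differed by less than their counting error. The region chr13:21972686-21976360 held 34, 25 and 10 reads, and chr13:22060692-22063579 held 29, 24 and 12, a sum of 65 that it shared with 2 further regions of the block.

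In block 2 the region with the most reads was chr13:23832936-23840522, with counts of 39, 43 and 21. The widest, chr13:23589739-23607682 (17944 bp), spanned the left edge of the block and held 47, 23 and 27 reads, including those of the ES1 peak that lay outside the block. Its peaks were long in every list, which covered 13090 bp (ES1), 14706 bp (ES2) and 8646 bp (ES3). The reads are known over only 4910, 1207 and 2312 bp of that cover. Per kb they were 9.57, 19.1 and 11.7, so ES1 led by count and not by density. The region chr13:23620892-23628688 held 30, 40 and 16 reads, and chr13:23663301-23669367 held 25, 37 and 16. Only chr13:23673105-23679682, among the 5 regions of block 2 in all 3 lists, had its highest count in ES3, with 17, 30 and 33 reads. Per kb it had 6.33, 7.67 and 7.73, so that order also lay close to even. By reads, ES1 was highest in 7 and ES2 in 2 of the 10 regions of block 1 in all 3 lists, and ES2 and ES3 tied in 1. In the 5 of block 2, ES1 was highest in 1, ES2 in 3 and ES3 in 1. With reads scaled to each list's total, block 2 had 2 for ES1, 2 for ES2 and 1 for ES3. These tallies compare reads over inner intervals of unequal length between lists. They do not rank the lists by reads per kb, where the order was often another.

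**Figure D4:**
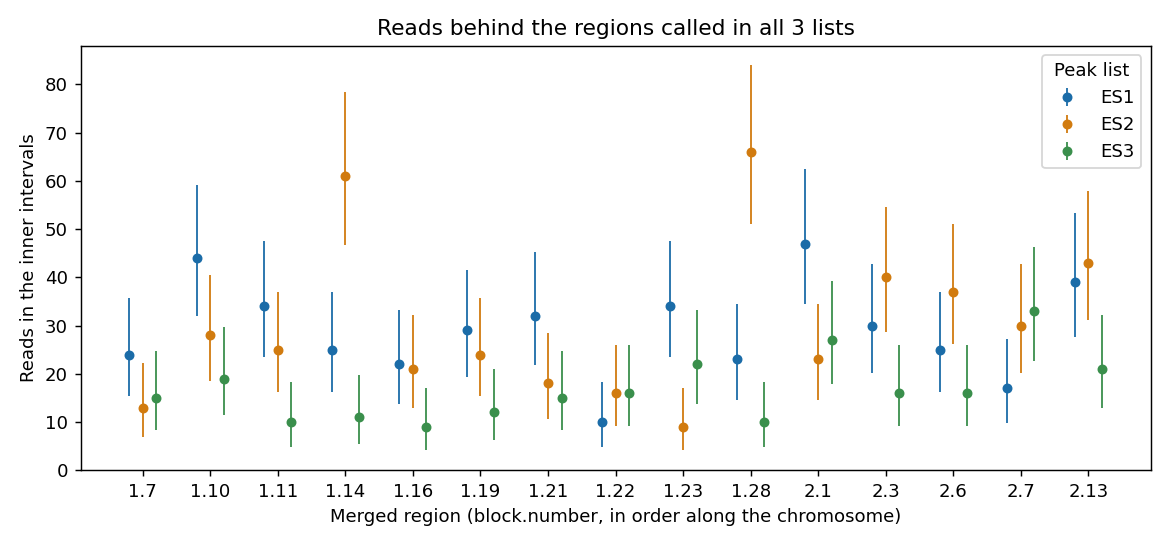
Reads in the inner intervals (vertical axis) of the 15 merged regions called in all 3 lists, in order along the chromosome, with the block and region number on the horizontal axis. Points are lists and bars are exact Poisson 95% intervals for counting error only. ES2 stands apart at 61 and 66 reads in 2 regions of block 1, where its inner intervals were longer, and the first region of block 2 includes the ES1 peak outside the block.

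A single region of the blocks was called in ES3 and not in ES1, chr13:22119947-22121414 (1468 bp, 12 reads, 6.20 to 21.0). It makes up 2.27% of the regions of the blocks. Genome-wide, 2.97% of regions were called in ES3 alone and 2.05% in ES2 and ES3 without ES1, so such regions were few there too. The 8 regions of ES1 alone held 9 to 21 reads. The 3 with the most were chr13:21997967-22000276 with 21, chr13:23634180-23635528 with 21 and chr13:21812371-21814734 with 20, and the other 5 held 9 to 12. The regions of ES2 alone held 9 to 14 reads, close to the 9 reads of the weakest ES2 peak on the chromosome. At 3 places the inner intervals of ES1 and ES2 ended within 100 bp of each other at both sides, so reads could be set side by side over nearly the same bases. At chr13:22010061-22010873 both had 12 reads. At chr13:23829971-23830471 (501 bp) both had 17 (9.90 to 27.2). At chr13:23686782-23688104 ES1 had 24 (15.4 to 35.7) and ES2 15 (8.40 to 24.7), and the ranges overlap. No place had such a match with ES3.

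In the dense part of the interval next to block 2, the regions in all 3 lists with the most reads had counts like those of the blocks. The region chr13:23491571-23494374 held 31 ES1, 36 ES2 and 23 ES3 reads, and chr13:23502456-23505641 held 19, 32 and 26. By count ES1 led in chr13:23554857-23559349, with 44 against 12 and 9. Its inner interval there was 3867 bp long, while the other lists had only 500 bp (ES2) and 504 bp (ES3). The density was 11.4 reads per kb for ES1, 24.0 for ES2 and 17.9 for ES3, so ES1 did not lead by reads per kb. The region chr13:23487155-23488660 was near even at 22, 20 and 21, and chr13:23390209-23393698 held 28, 21 and 10.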

How the data were processed

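Reads had been aligned with Bowtie (version not given) to mm9, per the submitters' processing notes. The sources used here do not give the peak caller, its settings or the treatment of duplicate and multi-mapping reads. The authors' deposited lists give each peak's position, an inner interval and a score with no stated unit. The score times the inner length was a whole multiple of a unit per chromosome and list (tolerance 0.001), taken as the number of reads. Reads outside inner intervals are unknown. The weakest peak on chromosome 13 had 8 reads (ES1 and ES3) or 9 (ES2).

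Overlap meant at least 1 bp. Shares carry exact binomial (Clopper-Pearson) and reads exact Poisson intervals at 95%, for counting error only. Regions were named by rule: up to 5 per block with the most summed reads, the widest per block, those in ES3 and not in ES1, the 5 leading interval regions in all 3 lists, and peaks at the block edges. The regions of ES1 or ES2 alone, groups of regions and matched places were chosen after their values were seen. The members and lists were chosen with earlier results of these data known. Alternatives changed the overlap, merging, tiles, block edges, list length and peak extent. Scripts were tested on simulated data and run in Python 3.11.15 with numpy 2.4.6 and scipy 1.17.1. The libraries were put in 8 groups by their labels, and none was compared because no list is tied to a library.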

Additional observations from a re-analysis of the deposited data

How the results depend on the processing

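Of 105 values under alternatives, 83 stayed within the limit set for them (1.5 times for counts). The blocks stood above the whole interval in 39 of 39 settings and lists. With lists shortened by score, block 1 held 10 ES1 and 13 ES2 peaks and block 2 held 6 and 9. The cover of both blocks was then 5.55% in ES1 and 6.46% in ES2, that of the interval 1.10% in ES1, and tiles with an ES1 peak 27.0% in the blocks and 4.83% in the interval. Regions in all 3 lists fell to 10.5% in the blocks and 11.5% in the genome. With lists shortened by reads they made up 35.5% in the blocks and 20.5% in the genome. Shortened by reads, block 1 held 13 ES1 and 13 ES2 peaks and block 2 held 11 ES1 and 9 ES2 peaks, with an ES1 cover of 12.6% and 44.4% of block tiles, both above ES3 (5.11% and 31.7%). With inner intervals only, ES1 cover was 10.7% in the blocks and 1.90% in the interval, and ES3 cover of the interval 0.681%. With blocks narrowed by 20 kb, block 2 kept 4 ES3 peaks. With blocks widened by 20 kb, the interval's ES3 cover was 0.791%. With 5 kb tiles, 41.3% of block tiles held an ES1 peak. Taking only the interval after the empty stretch, a setting chosen after seeing the data, moved its cover the most, to 20.4% in ES1, 16.0% in ES2 and 8.58% in ES3. Why these values moved was not tested. Both ways of shortening left 12391 peaks per list. ES1 cover of the blocks was nevertheless 5.55% by score and 12.6% by reads, and regions in all 3 lists made up 10.5% and 35.5% there. ES2 kept 13 peaks in block 1 and 9 in block 2 either way. No paired analysis was possible because the results come from lists with no replicates and from no test. Peaks of under 8 reads are not listed on chromosome 13, so weaker signal between peaks was not detectable.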
